A study of Mus musculus with 2 samples.

Results

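Complement and coagulation proteins were represented by 39 genes, chosen by name from a fixed list and read from both count matrices, out of 19073 features counted. They comprised 9 genes of complement initiation, 6 of the terminal pathway, 4 complement regulators, 7 vitamin K-dependent proteins, 4 contact factors, 6 genes for the cofactor, fibrin formation and fibrinolysis, and 3 serpin inhibitors. All 39 passed the filter on low levels (10 CPM, the gene's part of all UMIs scaled to a common total, in hepatocytes of either library), as did 7843 features in all. The cells came from livers of male, heterozygous C57BL/6 p16-Tom mice, in which CreERT2 driven from the p16Ink4a locus acts on a R26-CAG-LSL-tdTomato-WPRE reporter, so that tamoxifen marks for good the cells transcribing p16Ink4a at the time it is given. All mice had 4 weeks of CCl4, a hepatotoxin that injures the cells around the central vein, and tamoxifen, and hepatocytes were sorted as Tom- (p16low) or Tom+ (p16high). Each group was 1 library of fixed cells, with no animal label on the cells and no stated number of mice per library. Without replicates, what follows compares 2 libraries and not 2 conditions, and intervals cover counting error alone.

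The liver makes most of the complement and clotting proteins in plasma, and hepatocytes are their main source. Complement is started by recognition proteins and serine proteases that converge on C3, and it ends in a pore built from C5 to C9. Clotting is a chain of proteases ending in thrombin, which turns fibrinogen into fibrin, held back by serpins and by the protein C and protein S pathway. Hepatocytes along the axis from the central vein to the portal tract differ in many of the genes they express, a pattern called zonation, which is why position had to be held constant when Tom+ and Tom- cells were compared.

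The cells were placed on that axis with a score from 7 central and 7 portal landmark genes, none of them a member, and divided into 6 layers (layer 1 the most central, layer 6 the most portal). The reporter, which checks the sort labels, was at 72.0 CPM in Tom- and 806 CPM in Tom+ hepatocytes. All 7 hepatocyte markers were found in every layer, and their summed level ran from 117818 to 154378 CPM in Tom- and from 117594 to 159450 CPM in Tom+ layers. Of 11073 Tom- hepatocytes 822 lay in layer 1 and 2591 in layer 6, whereas of 10472 Tom+ hepatocytes 2713 lay in layer 1 and 1041 in layer 6. Median depth per layer was between 28280 and 41763 UMIs per cell. A total of 503 barcodes occurred in both libraries. As a mean over the 6 layers, the 7 held-out central landmarks had a median log2 ratio of 0.12 for Tom+ over Tom- (−0.09 to 0.31). That of the 7 held-out portal ones was −0.08 (−0.22 to 0.21). Single layers differed by more, as for Etnppl (portal, −0.67 in layer 1 and 0.32 in layer 4) and Lgr5 (central, −0.37 in layer 2 and 0.90 in layer 6). The score's own central genes ran from −0.26 (Cyp2a5) to 0.79 (Oat), and its portal ones from −0.18 (Pck1) to 0.21 (Aldh1b1). The median score of layer 1 was −1.95 in Tom- and −2.10 in Tom+. Whether these differences reflect position was not tested.

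The members took 4.83% of the UMIs of Tom- and 4.49% of those of Tom+ hepatocytes. By layer their share was lowest in layer 1, at 4.22% and 4.08%, and highest in layer 5, at 5.00% and 4.77%. C3, the central protein of the cascade, had the highest level in both libraries (8645 CPM in Tom- and 9243 CPM in Tom+), and Pros1, which encodes protein S, the lowest (51.1 and 62.9 CPM). Since the assay counts probes and not whole transcripts, a difference in level between genes may come from the probes as well as from the RNA, and the comparisons below are made within a gene.

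A pair of sets of regulatory sequence are shown for the patterns described next: those of the 3 fibrinogen chains, which are neighbours on chromosome 3 and varied together, and those of C9 and C6, which lie on chromosome 15 and had opposite gradients. Each is RefSeq sequence (GRCm38.p6) from upstream of the gene, 5′ to 3′, limited to bases outside the annotated gene: chr3:83025903-83026075 (plus strand), chr3:83049864-83050113 (minus strand), chr3:83007474-83007723 (plus strand), chr15:6445096-6445326 (plus strand) and chr15:4726960-4727174 (plus strand). Capitals mark matches to 5 motifs searched on both strands in the 250 bases before the RefSeq start. That start is the first base of the gene for Fgb and Fgg, but it lies inside the gene as annotated here for Fga (by 77 bases), C9 (by 19 bases) and C6 (by 35 bases), whose printed stretches are therefore shorter.
Fga: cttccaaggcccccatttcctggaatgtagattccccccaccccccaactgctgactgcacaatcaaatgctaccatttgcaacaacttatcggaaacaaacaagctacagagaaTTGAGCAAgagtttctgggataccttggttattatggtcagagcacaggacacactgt
Fgb: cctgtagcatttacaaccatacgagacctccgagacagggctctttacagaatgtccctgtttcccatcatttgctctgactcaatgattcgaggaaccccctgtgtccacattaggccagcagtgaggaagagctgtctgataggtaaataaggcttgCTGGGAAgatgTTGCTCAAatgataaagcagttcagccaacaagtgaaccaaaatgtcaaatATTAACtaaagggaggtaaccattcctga
Fgg: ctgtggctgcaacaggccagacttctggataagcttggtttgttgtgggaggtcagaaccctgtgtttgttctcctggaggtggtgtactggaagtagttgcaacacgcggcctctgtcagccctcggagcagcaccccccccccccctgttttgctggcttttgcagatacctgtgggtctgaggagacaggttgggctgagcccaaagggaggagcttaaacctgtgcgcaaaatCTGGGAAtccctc
C9: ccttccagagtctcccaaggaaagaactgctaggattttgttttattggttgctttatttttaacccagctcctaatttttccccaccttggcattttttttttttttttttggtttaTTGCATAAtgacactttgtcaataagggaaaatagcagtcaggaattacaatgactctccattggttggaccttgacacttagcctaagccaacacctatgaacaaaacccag
C6: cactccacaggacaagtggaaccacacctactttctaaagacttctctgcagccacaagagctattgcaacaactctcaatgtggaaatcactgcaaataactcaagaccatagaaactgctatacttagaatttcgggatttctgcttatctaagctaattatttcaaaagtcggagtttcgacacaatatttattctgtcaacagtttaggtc

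The motifs were CTGGGAA, the core of the type II response element of interleukin 6 (in 9.10% of 32851 promoter windows of that length), TTGCNNAA for C/EBP factors (9.56%), GTTAAT for HNF1 (6.43%), CAAAGTCCA for HNF4 (0.384%), and CTTTGA for TCF/LEF factors (13.8%). Of the 39 members 30 had a window, and these held the motifs in 5, 7, 10, 0 and 3 cases. The counts are by gene and the shares by window, and C8g had more than 1 window. Among the matches counted, the TCF/LEF match of C8g and both matches of C1ra (CTGGGAA and GTTAAT) lay inside the gene as annotated here. Fgb held CTGGGAA 91 to 85 bases before its start, a C/EBP match 80 to 73 bases before it and an HNF1 match 29 to 24 bases before it. In Fgg the CTGGGAA match lay 13 to 7 bases before the start. Fga had a C/EBP match 58 to 51 bases before the annotated gene (135 to 128 before the RefSeq start), and an HNF1 match in the stretch not printed, inside the annotated gene and 43 to 38 bases before the RefSeq start. The C9 window contained a single C/EBP match, 113 to 106 bases before the annotated gene (132 to 125 before the RefSeq start), and the C6 window none of the 5. A match of letters is a description of the window and not evidence of binding.

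Lobule gradients were first compared across the members. The gradient is log2 of the CPM in layer 6 over that in layer 1, and a member was counted where it passed 1.5-fold in the same direction in both libraries. Higher at the portal end were 4 of 39 members, C9, F11, C8g and F7, against a background of 4.37% of all genes kept. Higher at the central end were 3 of 39, C6, C4bp and Pros1, against 8.73%. Of the 4, F7 was the least firm: its Tom- interval (0.55 to 0.66) spans the 1.5-fold limit, and it was not counted under 4 of 14 other settings. With no limit, 28 members had a portal sign in both libraries (20.8% of all genes kept) and 9 a central sign (71.1%), and the sign was shared for 37 of 39. The members' gradients in the 2 libraries differed by a median of 0.04 and by at most 0.23 (F11), and their Pearson r was 0.99 over 39 genes, as a description of 2 libraries layered with 1 score. The median gradient of the members was 0.22 in Tom- and 0.19 in Tom+, while that of all genes kept was −0.17 and −0.22. CPM depends on what else a layer expresses, so a member at 0 on this scale was above the median gene. Median-of-ratios scaling, which removes that shift, gave 7 portal and 3 central members, beside 6.71% and 5.48% of all genes, and turned the sign of 6 shallow members (C1ra, C2 and Plg in both libraries, Mbl2 and F12 and F2 in 1).

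**Figure D1:**
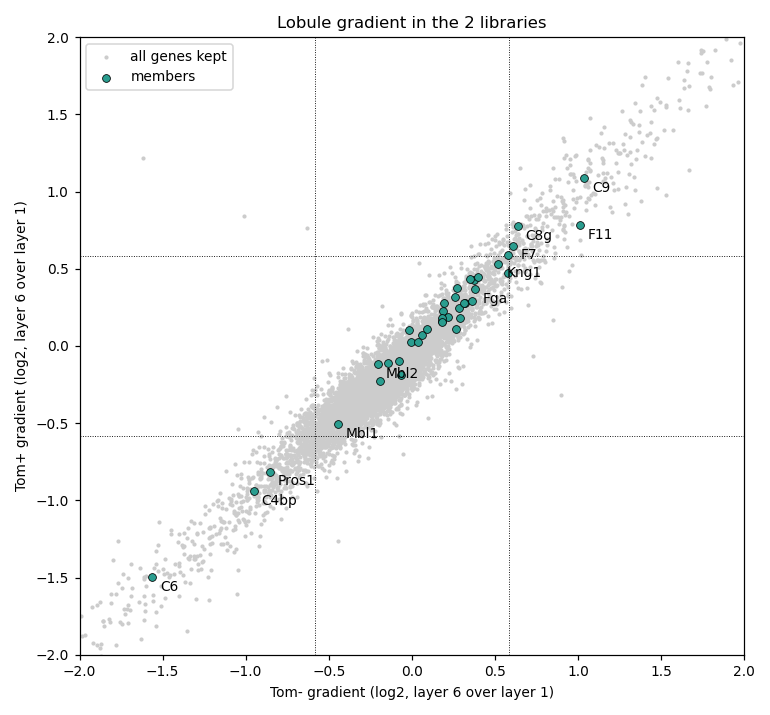
Lobule gradient (log2 of layer 6 over layer 1 CPM) in the Tom- library (x axis) and the Tom+ library (y axis), with members in green, all genes kept in grey, and dotted lines at 1.5-fold (147 genes lie outside the axes). C9 and F11 are at the portal end and C6, C4bp and Pros1 at the central end in both libraries, and most members lie between the dotted lines, to the portal side of the main mass of genes.

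Complement initiation had shallow gradients in both libraries. Mbl1, a mannose-binding lectin that recognises microbial sugars, was the most central of the 9, at 370 CPM in layer 1 and 271 CPM in layer 6 of Tom- cells and at 371 and 262 CPM in Tom+ cells (log2 −0.45 and −0.50). Its relative Mbl2 had a smaller difference, 730 against 634 CPM in Tom- and 635 against 585 CPM in Tom+ (−0.20 and −0.12). Reads shared between such paralogs cannot be seen in these counts. Cfb, which supplies the protease of the alternative pathway, had the most portal gradient of the group, from 1217 to 1517 CPM in Tom- and from 1115 to 1354 CPM in Tom+ (0.32 and 0.28). C3 was at 8171 and 9278 CPM at the ends in Tom- and at 8907 and 10121 CPM in Tom+ (0.18 in both).

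Neighbouring genes of the complement region on chromosome 17 had gradients of different size, none of them past the limit. C2 (chr17:34862604-34898265, minus strand, mm10), the protease of the classical and lectin pathways, had −0.07 in Tom- and −0.09 in Tom+ (0.09 and 0.11 with median-of-ratios scaling), whereas the adjacent Cfb (chr17:34856374-34862518, minus strand) had the 0.32 and 0.28 given above. C4b (chr17:34728380-34743882, minus strand), which forms the scaffold of the classical C3 convertase and may share reads with the near-identical C4a, was highest in layer 4 of both libraries, at 2597 CPM in Tom- and 2412 CPM in Tom+, with gradients of 0.18 and 0.16. The proteases Masp1 (0.19 and 0.23) and Masp2 (0.22 and 0.19) were similar to C4b, and C1ra, a protease of the first component, was close to level (−0.06 and −0.19).

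The terminal pathway held the widest spread, although its products are built into 1 complex. C9, whose protein lines the pore, was at 68.9, 100.1, 126, 148, 142 and 141 CPM from layer 1 to layer 6 in Tom- and at 66.9, 95.4, 121, 138, 135 and 142 CPM in Tom+. Its gradient was 1.04 (95% counting interval 0.97 to 1.11) in Tom- and 1.09 (1.04 to 1.14) in Tom+, with nearly all of the difference between layers 1 and 4. C6, which joins the complex early, ran the other way, from 167 through 137, 94.1, 69.3 and 56.3 to 56.5 CPM in Tom- and from 168.5 through 137, 102, 78.5 and 62.4 to 59.7 CPM in Tom+. This gave −1.56 (−1.62 to −1.504) and −1.497 (−1.55 to −1.44), the largest gradient of any member in either library. For both genes each end layer held at least 1782 UMIs, and no interval of layer 1 overlapped one of layer 6.

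The 3 chains of C8 also differed among themselves. C8g, the lipocalin-like gamma chain, went from 694.5 CPM in layer 1 to 1081 CPM in layer 6 of Tom- and from 608 to 1040 CPM in Tom+ (0.64 and 0.78). C8a (chr4:104815679-104876398, minus strand), the alpha chain, had 0.38 and 0.43, and its neighbour C8b (chr4:104766317-104804548, plus strand), the beta chain, 0.19 and 0.28. Hc, the mouse gene for C5, was at 0.26 in Tom- and 0.11 in Tom+.

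Among the regulators, C4bp, whose protein speeds the decay of the classical convertase, was central. It was at 774, 684, 589, 507, 425 and 401 CPM from layer 1 to layer 6 in Tom- and at 749, 653, 565, 488, 403 and 390.1 CPM in Tom+, lower at every step in both libraries (−0.95 and −0.94). Cfi, the protease that cleaves C3b and C4b with such cofactors, was portal without reaching the limit (0.40 and 0.45). Serping1, the inhibitor of the first component and of kallikrein (0.27 and 0.37), and Vtn, which blocks the terminal complex (0.26 and 0.32), resembled Cfi.

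The vitamin K-dependent proteins held portal, level and central genes. F7, which starts clotting with tissue factor, was at 129 CPM in layer 1 and 197 CPM in layer 6 of Tom- and at 134 and 210.4 CPM in Tom+ (0.61 and 0.65). F9, the gene mutated in haemophilia B, was at 125.0 and 187 CPM and at 117 and 176 CPM, and its 0.58 in Tom- fell just short of the limit that its 0.59 in Tom+ passed. F10 had 0.35 and 0.44 and Proz, a cofactor for an inhibitor of factor Xa, 0.29 and 0.18, so that the neighbours F7 (chr8:13026034-13035809), F10 (chr8:13037308-13056676) and Proz (chr8:13060914-13076026), all on the plus strand, all had a portal sign and decreasing gradients in that order. F2, which encodes prothrombin, was level to within counting error in Tom- (−0.01, interval −0.02 to 0.01) and at 0.02 in Tom+, and Proc, for protein C, was at 0.06 and 0.07. Pros1, the cofactor of protein C, was central, at 73.3, 65.1, 60.0, 49.9, 43.3 and 40.6 CPM in Tom- and at 77.4, 68.8, 63.1, 55.2, 47.2 and 44.1 CPM in Tom+ (−0.85 and −0.81). The genes for protein C and its cofactor therefore had different profiles over the same layers, as sums and not cell by cell.

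Of the 4 contact factors 1 passed the limit, F11 at the portal end. F11, which activates factor IX, was at 62.8, 77.9, 97.5, 119, 134 and 126 CPM from layer 1 to layer 6 in Tom- and at 66.3, 85.1, 98.4, 115, 127 and 114 CPM in Tom+. Its gradient was 1.01 (0.94 to 1.09) in Tom- and 0.78 (0.73 to 0.83) in Tom+, the largest difference between the libraries among the members. The neighbour Klkb1 (chr8:45266689-45294859, minus strand; F11 at chr8:45241174-45262031, minus strand), which encodes plasma prekallikrein and descends from the same ancestral gene, had 0.58 and 0.47. Kng1, for the kininogen that carries both, was at 0.52 and 0.53, with reads possibly shared with Kng2. F12, the first factor of this pathway, had almost none (−0.02 in Tom- and 0.10 in Tom+).

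The 3 fibrinogen chains had their highest level in the middle of the axis. Fga was at 3039, 3494, 4043, 4453, 4266 and 3955 CPM from layer 1 to layer 6 in Tom- and at 2632, 3172, 3641, 3816, 3531 and 3391 CPM in Tom+. Fgb was at 3236, 3754, 4328, 4692, 4426 and 4166 CPM in Tom- and at 2883, 3446, 3835, 3916, 3640 and 3533 CPM in Tom+. Fgg was at 3506, 3983, 4509, 4881, 4619 and 4264 CPM in Tom- and at 3352, 3990, 4480, 4561, 4213 and 3981 CPM in Tom+. All 6 profiles were highest in layer 4, above layer 1 by 0.44 to 0.55 and above layer 6 by 0.15 to 0.20 on the log2 scale.

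Such a mid-lobular peak, with the highest level in layer 3 or 4 of both libraries, was seen for 7 of 39 members, against 3.48% of all genes kept. Besides the fibrinogen chains these were C4b, Masp2, F2 and Serpinf2, and the differences were small for F2 (layer 4 above layer 1 by 0.07 and above layer 6 by 0.08 in Tom-) and, on the portal side, for Masp2. Masp2 was at 350 CPM in layer 4, 349 CPM in layer 5 and 335 CPM in layer 6 of Tom- and at 326, 325 and 323.5 CPM in Tom+, where the 3 intervals overlapped, so that a peak was not distinguished from a portal plateau there. The highest level was in layer 5 or 6 of both libraries for 19 members (18.2% of all genes kept) and in layer 1 or 2 for 8 (63.9% of all genes kept), and 5 had it in different pairs of layers in the 2 libraries. Of the other members of this group, F5, the cofactor of factor Xa, had −0.19 and −0.23, Plg, the precursor of plasmin, nearly level (−0.14 and −0.11, and 0.02 and 0.10 with median-of-ratios scaling), and F13b, the carrier chain of factor XIII, slightly portal (0.18 and 0.16). Among the serpins, Serpinc1, for antithrombin (0.09 and 0.11), and Serpinf2, which inhibits plasmin (0.03 and 0.02), were nearly level, and Serpind1, for heparin cofactor II, had 0.32 and 0.28.

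**Figure D2:**
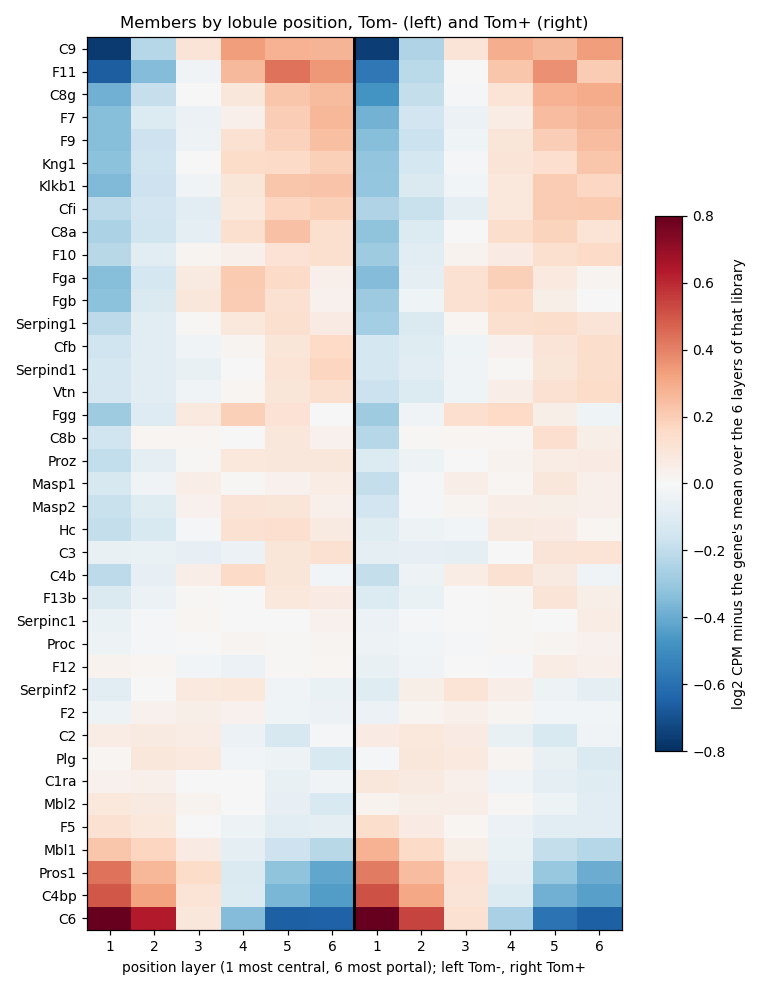
Heat map of the 39 members (rows, ordered by mean gradient) over layers 1 to 6 of the Tom- library (left) and the Tom+ library (right), coloured by log2 CPM minus the gene's mean over the layers of that library, with colours saturating at 0.8. C9 and F11 lead the portal genes and C6, C4bp and Pros1 the central ones, and the fibrinogen chains are highest in layer 4.

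Cell-to-cell variation inside a layer linked the fibrinogen chains more closely than other members. For the 32 members with at least 5 UMIs per cell in both libraries, log values were centred on the mean of their layer, and Pearson r across cells was computed in each library. The 3 fibrinogen pairs had r between 0.69 and 0.73, and the median of all 496 pairs was 0.04 in Tom- and 0.06 in Tom+. Counting noise lowers r for genes with few UMIs, so the closer comparison is with the 25 other pairs among the 8 members at 80 UMIs per cell or more. Those had r between −0.06 and 0.58 in Tom- and between 0.01 and 0.49 in Tom+. The cells of a library share depth and scaling, so these coefficients are a description.

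The second question was whether Tom+ and Tom- hepatocytes differed at the same position. With all hepatocytes of a library summed, C6 was at 80.8 CPM in Tom- and 114 CPM in Tom+ (log2 ratio 0.49) and Pros1 at 51.1 and 62.9 CPM (0.30), so 2 of 39 members were 0.3 or more higher in Tom+ (background 8.48%). Fga, at 4040 and 3270 CPM (−0.30), was the 1 member lower by that much (background 2.54%). The unmatched ratios followed the gradients, with Pearson r of −0.82 against the Tom- gradient over 39 genes, and the matched ones did so less (−0.21).

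**Figure D3:**
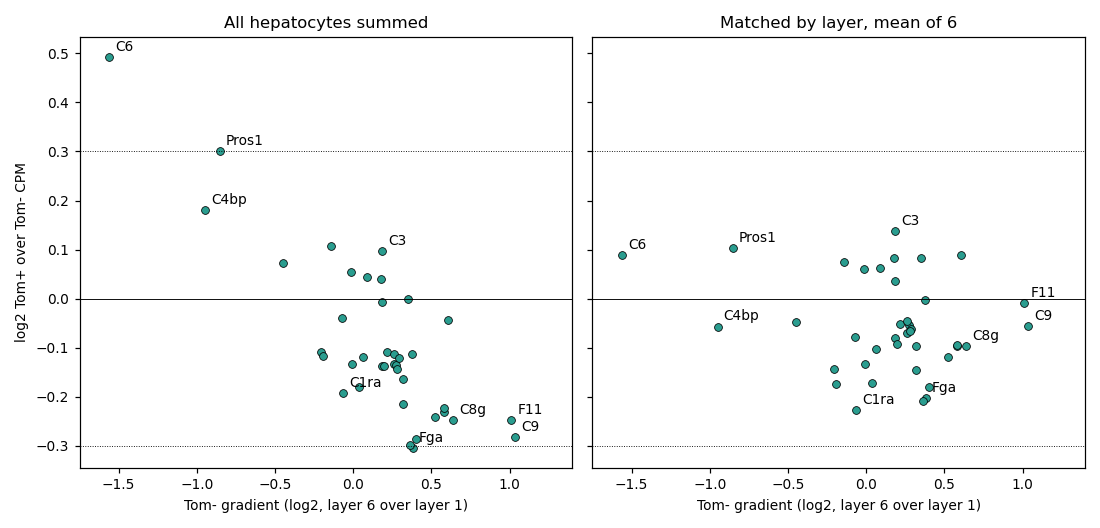
Log2 Tom+ over Tom- CPM of the 39 members (y axis) against their Tom- gradient (x axis), with all hepatocytes summed on the left and matched by layer on the right, and dotted lines at 0.3 up and down. On the left C6, Pros1 and C4bp are high and the portal genes C9, F11 and C8g low, and on the right these genes run from −0.10 (C8g) to 0.10 (Pros1).

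At matched position, as the mean of the log2 ratios of 6 layers, 0 of 39 members were 0.3 or more higher in Tom+ (background 2.58%) and 0 of 39 were 0.3 or more lower (background 0.485%). The ratios lay between −0.23 (C1ra) and 0.14 (C3), with a median of −0.07, beside −0.01 for all genes kept. The members were no tighter than other genes: their median size was 0.09 and that of all genes 0.08. Below 0 were 29 of the 39, beside 53.2% of all genes kept, and 21 were below 0 in all 6 layers, beside 25.9%. Above 0 in all 6 layers were 7 members, beside 24.9%. Among the central genes C6 was at 0.09 (interval 0.07 to 0.11), C4bp at −0.06 and Pros1 at 0.10, and among the portal ones C9 was at −0.06, F11 at −0.01, C8g at −0.10 and F7 at 0.09.

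The lower end held C1ra and 2 of the 3 fibrinogen chains. C1ra, with 4.00 UMIs per Tom- and 3.83 per Tom+ cell, was lower in Tom+ in all 6 layers, by −0.17 to −0.30 on the log2 scale, giving a mean of −0.23 (−0.25 to −0.21) or 0.85-fold. Its near-copy C1rb was counted at 1.44 and 1.25 CPM. Fgb had −0.21 (−0.28 to −0.12 over layers) and Fga −0.20 (−0.27 to −0.14), but Fgg, from the same gene cluster (Fgg at chr3:83007724-83015049 and Fga at chr3:83026076-83033627, plus strand, and Fgb at chr3:83040141-83049863, minus strand) and with the same profile, had −0.07 (−0.13 to 0.00). In layer 5, for example, Fga was at 4266 CPM in Tom- and 3531 CPM in Tom+, and Fgg at 4619 and 4213 CPM. Cfi (−0.18), F5 (−0.17), Serpinf2 (−0.17), Cfb (−0.15), Mbl2 (−0.14) and F2 (−0.13) followed, each of them lower in Tom+ in all 6 layers.

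At the upper end C3 was higher in Tom+ in all 6 layers, by 0.12 to 0.18, with a mean of 0.14 or 1.10-fold, and it was the only member past 0.11. Pros1, C6, F7, F10 and F13b followed at 0.08 to 0.10, then Plg (0.07), Serpinc1 and F12 (0.06 each). Among the genes of the C3 convertases, C3 was at 0.14 and its partners Cfb at −0.15, C4b at −0.08 and C2 at −0.08. All 4 complement regulators lay below 0, at −0.18 to −0.05. By role, the median ratio was −0.08 for complement initiation, −0.06 for the terminal pathway, −0.06 for the regulators, −0.06 for the vitamin K-dependent proteins, −0.05 for the contact factors, −0.12 for the fibrin group and −0.10 for the serpins. Counting intervals were narrow because each layer held many UMIs, and they say nothing of the spread between mice.

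**Figure D4:**
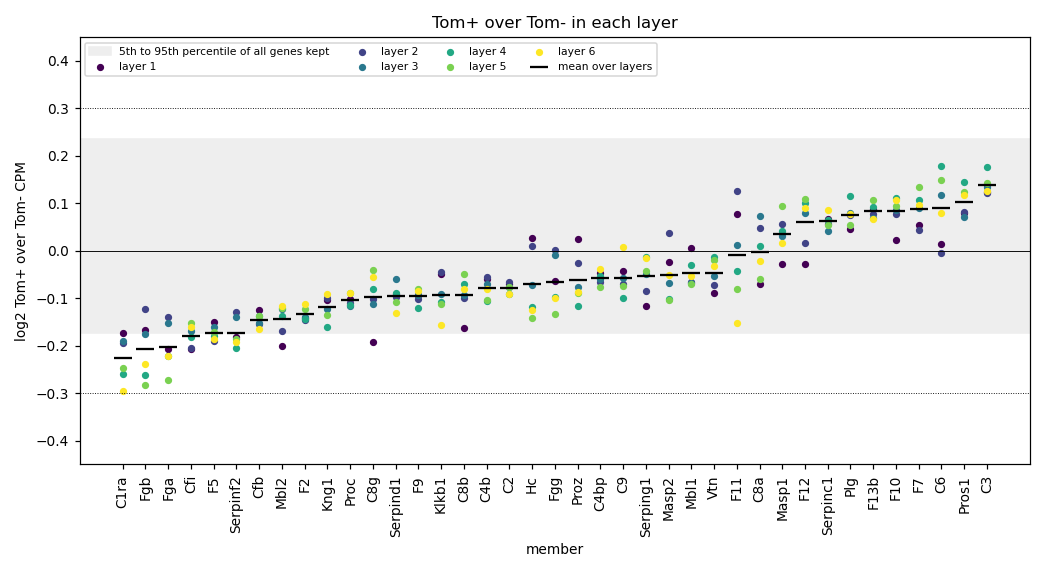
Log2 Tom+ over Tom- CPM of each member (x axis, ordered by mean) in each of the 6 layers (points, dark for central and light for portal), with black bars for the mean, dotted lines at 0.3 up and down, and a grey band for the 5th to 95th percentile of all genes kept (−0.17 to 0.23). C1ra, Fgb and Fga lie lowest and C3 highest, and no mean passes a dotted line.

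Tom+ hepatocytes were not uniform. In 2 of 12 clusters of hepatocytes at least 90% of the cells were Tom+, and their 1558 and 496 Tom+ cells were compared with other Tom+ hepatocytes of the same layers. In the larger one 1 of 39 members was 0.3 or more higher (background 17.8%), C9 at a mean log2 of 0.46 (0.39 to 0.61 over 4 layers). Lower by that much were 3 (background 2.91%), Fga (−0.39), Mbl2 (−0.37) and C8g (−0.37). In the smaller one 0 of 39 were higher (background 16.5%) and 3 lower (background 5.5%), Cfb, Vtn and Mbl2 at −0.33 to −0.32, and C9 was at 0.22 over 3 layers. Mbl2 was thus low in both. Masp2, at 0.29 and 0.27, stayed under the limit of 0.3 that 17.8% and 16.5% of all genes kept reached. Other members also had 1 sign in both, such as Pros1 (0.26 and 0.25) and Vtn (−0.26 and −0.33). The clusters were made from 2000 variable genes with no member excluded beforehand, so these values describe them and are no test. Without the 2 clusters the matched ratio of C9 was −0.13, and 0 of 39 members were past 0.3, beside 1.69% of all genes higher and 0.371% lower.

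Other genes of the pathway gave the surroundings. Of 66 further genes on a list of complement, clotting, acute phase and regulator genes, 64 had a feature and 38 passed the filter on low levels. At the portal end 8 of the 38 passed the limit, beside the 4.37% of all genes kept. Among them were the acute phase genes Orm1 (1.46 in Tom- and 1.53 in Tom+), Saa1 (1.21 and 1.31), Saa2 (1.19 and 0.90), Hpx (0.98 and 1.09) and Lrg1 (0.84 and 0.89), of which Saa1 and Saa2 are near-identical and may share reads. Hp, for haptoglobin (−0.01 and −0.08), and Crp, for C-reactive protein (0.22 and 0.23), are acute phase genes of the same list that did not pass. The others were Hgfac, which activates hepatocyte growth factor (1.41 and 1.37), Cpb2, the inhibitor of fibrinolysis that thrombin activates (0.92 in both), and the complement gene Cfhr2 (0.67 and 0.63). C1qb, which macrophages express, was the 1 central one (−0.68 and −0.76), beside the 8.73% of all genes kept. It was at 47.4 CPM in Tom- and 49.9 CPM in Tom+. The other chains of C1q were below the filter, C1qa at 8.48 and 6.86 CPM and C1qc at 1.95 and 2.28 CPM. The summed macrophage and leukocyte markers were also lower in layer 6 than in layer 1, at 131 against 194 CPM in Tom- and 92.3 against 155 CPM in Tom+, and their part in the C1qb value was not tested. At matched position 0 of the 38 passed 0.3 in either direction, beside the 2.58% of all genes higher and 0.485% lower.

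The members were also read in the clusters left out as not purely hepatocytes, and C6, Pros1 and Masp1 are described there because of the values found. The 2 of these clusters richest in leukocyte, stromal or endothelial markers (1526 cells) were divided into 12 subclusters, of which 6 were named. A name was given to a subcluster of at least 50 cells with albumin RNA below the hepatocyte level, at least 3 markers of the type, and a marker of that type and of no other among its 10 leading genes. The 6 were 1 endothelial-like (182 cells, led by Ushbp1, Egfl7 and Stab2), 4 with markers of macrophages or other leukocytes (called macrophage-like here) and 1 stellate or fibroblast-like. The last (69 cells) was led by Col3a1 and Rbms3, its 10 leading genes also including Thbd and, shared with the endothelial-like cells, Hecw2 and Egfl7. A subcluster led by the endothelial genes Ushbp1 and Stab2 (372 cells) stayed unnamed because its albumin RNA was at 129% of the hepatocyte level. Another with all 7 endothelial markers, led by Top2a, stayed unnamed because it held 35 cells and had none of those 7 among its 10 leading genes. In all 6 named subclusters albumin RNA was at 36.6% to 90.7% of its hepatocyte level, and the median member at 0.35 to 0.73 times hepatocytes, below albumin in each. RNA made in these cells and RNA of hepatocytes carried with them cannot be told apart for a member at that level.

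C6 stood apart in the macrophage-like cells. In the 176 cells led by Cd163, Clec4f and Marco, markers of resident macrophages, C6 was at 595 CPM in Tom- and 791 CPM in Tom+ cells, 6.42 times the hepatocyte level (5.97 to 6.89), where Alb was at 0.74 times. The 83 cells of a like profile with Kif23 and Mki67, genes of dividing cells, had 2.99 times. C6 was at 1.31 times in the 61 cells led by Gpnmb and Lgals3 and at 0.49 times in the 82 led by H2-Eb1 and Cd74. Of the markers of macrophages and other leukocytes, these 82 had only Cd74 among their leading genes, so they may be other leukocytes. Pros1 was 4.17 times the hepatocyte level (3.63 to 4.77) in endothelial-like and 2.15 times in stellate or fibroblast-like cells, and Masp1 2.03 times (1.72 to 2.39) and 2.89 times (2.51 to 3.31). The stellate or fibroblast-like cells also held endothelial RNA, with the 7 endothelial markers at a sum of 1874 CPM beside 2624 CPM for the stellate ones and 6032 CPM of the endothelial ones in the endothelial-like cells, and its part in their Pros1 and Masp1 was not tested. In the 4 macrophage-like subclusters Pros1 was at 0.81 to 1.39 times the hepatocyte level. The levels of Pros1 and Masp1 in the endothelial-like and the stellate or fibroblast-like cells, and that of C6 in the Clec4f-led and the Mki67-rich cells, were above the hepatocyte level in each library. In the Gpnmb-led cells C6 was at 138 CPM in Tom- but at 91.4 CPM in Tom+, from 9 UMIs, and the interval of its pooled ratio was 0.99 to 1.69.

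**Figure D5:**
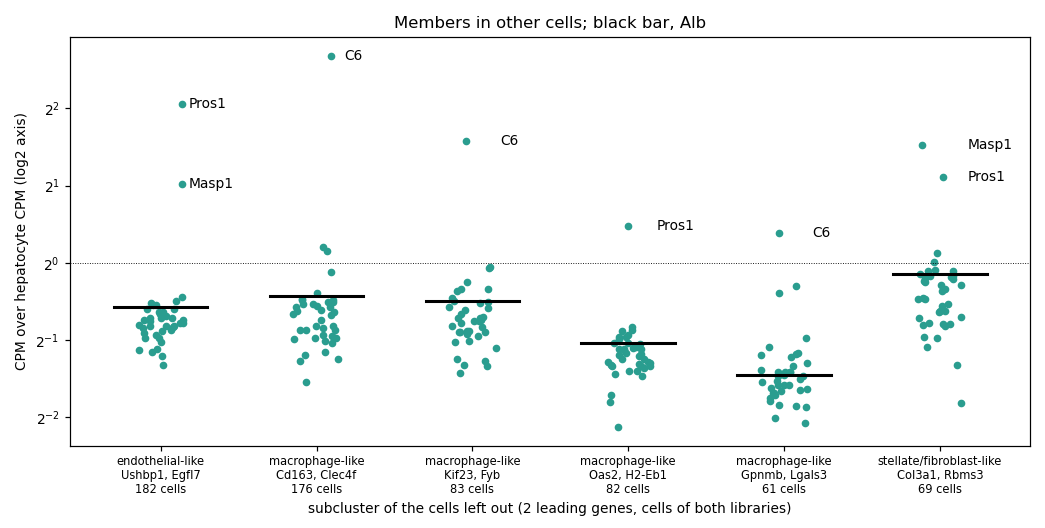
Level of each member (green points) and of Alb (black bar) in 6 subclusters of the cells left out, as CPM over the hepatocyte CPM on a log2 axis, with the type, the 2 leading genes and the number of cells under each. C6 stands well above the albumin bar in 3 of the 4 macrophage-like subclusters and level with it in the fourth (both 0.49), Pros1 lies above the bar in all 6 (0.81 to 4.17), and Masp1 is highest in the stellate or fibroblast-like and the endothelial-like ones (2.89 and 2.03).

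RNA of such cells was present in the hepatocyte layers at a low level. The 7 macrophage and leukocyte markers summed to 131 to 221 CPM in Tom- and to 92.3 to 198 CPM in Tom+ layers, the 7 endothelial ones to 50.0 to 62.9 and 36.2 to 56.9 CPM, and the 7 stellate ones to 25.6 to 59.9 and 21.4 to 53.6 CPM, with no marker at 0. The macrophage sum was highest in layer 3 of both libraries, at 221 and 198 CPM. In the Clec4f-rich macrophage-like cells there were 0.19 UMIs of C6 for each of Clec4f, and in layers 1 and 6 of the hepatocytes from 3.24 to 10.05. The part of such RNA in the gradients was not tested. In the cells with the lower share of markers of other cell types (the lower of 2 equal parts of each library and layer), an alternative added after the data were seen, C6, C4bp and Pros1 were again the 3 central members, and C9, F11, C8g and F7 the 4 portal ones, beside 8.63% and 4.49% of all genes kept.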

How the data were processed

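The authors deposited unnormalised UMI counts by gene and barcode for 1 Tom- and 1 Tom+ library, made with Cell Ranger 7.2.0 and an mm10 reference (the submitters' processing notes) from fixed cells hybridised to the 10x mouse probe set. The libraries held 681279005 and 715333889 UMIs in 23220 and 16339 barcodes. Cells were kept at 2000 to 10000 genes, at most 100000 UMIs and a mitochondrial fraction of at most 0.05 (20159 Tom- and 13378 Tom+). Both libraries were clustered together without integration (2000 variable genes, 30 principal components, 20 neighbours, resolution 0.8; scanpy 1.11.5, leidenalg 0.10.2, Python 3.11.15). Of 16 clusters, 8 were left out because their median number of genes was below 0.75 of the overall median or because a marker (Ptprc, Dcn, Pecam1) reached 2.5 times its median over clusters. This removed 9086 Tom- (45.1%) and 2906 Tom+ (21.7%) cells, so the filter was unequal between the libraries. The largest cluster left out, which met both rules, held 4375 Tom- and 165 Tom+ cells. Doublets were not called.

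The position score was the mean z-score of 7 portal landmarks minus that of 7 central ones, cut into 6 layers with equal weight for each library. Counts were summed per library and layer, as CPM (exact Poisson intervals). Ratios other than the matched ratio had exact conditional intervals (all at 95%). A layer with 0 UMIs of a gene was set to 0.5 UMIs. The matched ratio averages the log2 ratios of the 6 layers with equal weight. Its 95% interval is a normal approximation from Poisson counting error. Members were counted at 1.5-fold for gradients and at a log2 ratio of 0.3 for Tom+ over Tom-, and background shares cover all genes with at least 10 CPM in either library and 20 UMIs. With 1 library per group no test was made. Named genes were all 39 members, with CPM by layer for those past the gradient limit and for some of the role extremes and chromosomal neighbours. The members, lists and limits were chosen with earlier results of these data known. The calculations were tested on simulated data. Alternatives changed the landmarks, score, layers, cell selection, scaling, summing, depth, filters, limits and matching.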

Additional observations from a re-analysis of the deposited data

Results flagged for a closer look

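F12, which encodes the first factor of the contact pathway, was the 1 member whose Tom+ to Tom- ratio had opposite signs at the 2 ends of the axis with both counting intervals clear of 0. It was at −0.03 (−0.05 to −0.00) in layer 1 and at 0.09 (0.07 to 0.11) in layer 6, a difference of 0.12 on the log2 scale. F11 also changed sign, from 0.08 (−0.0006 to 0.16) in layer 1 to −0.15 (−0.20 to −0.11) in layer 6. Its ends lay further apart than those of F12, by 0.23, but its layer 1 interval just included 0. Hc (0.03 and −0.13) and Proz (0.02 and −0.09) missed the rule in the same way. No share of all genes kept was computed for this rule, so whether 1 member is more than other genes give is not known. Among the held-out landmarks the ratios in layers 1 and 6 were −0.14 and 0.90 for Lgr5, and −0.08 and 0.05 for Gldc. These differences were not tested, since each group is 1 library.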

How the results depend on the processing

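The members' gradients and matched ratios, their counts and background shares, and the median ratio were recomputed under 14 other settings of position, cells and scaling. Of these, 2 were added after the data were seen (20 layers, and the cells with fewer markers of other types). Other limits, other background filters and no matching were also used. Not recomputed were the mid-lobular peaks, the correlations across cells, the values in the Tom+-rich clusters, the further pathway genes, the levels in the cells left out and the flag on F12. C6, C4bp and Pros1 were the 3 central members in all 14, beside 5.48% (median-of-ratios scaling) to 12% (20 layers) of all genes kept. C9 and F11 were among the portal ones in all 14. The portal count was 4 at the main settings (4.37% of all genes kept) and 2 with 3 layers (C9 and F11, 3.44%). It was 5 with 10 layers (4.73%), 6 with 20 layers (5.11%) and 7 with median-of-ratios scaling (6.71%, with F9, Klkb1 and Kng1 in addition). In the other 10 settings it was 3 or 4 (3.93% to 4.66%). F7 was lost with 3 layers, with the score taken as a portal share (4.12%), with all cells past the per-cell filters (3.93%) and in cells thinned to 5000 UMIs (4.29%), and C8g with 3 layers. With a 2-fold limit it was 1 (C9; 2.12%), and the central count was 1 (C6; 3.46%). With a filter of 50 CPM, which all 39 members pass, the background was 6.85% portal, 9.46% central, 2.54% higher and 0.381% lower in Tom+, and over all genes with 20 UMIs it was 5.91%, 14.6%, 7.69% and 8.24%. No member reached 0.3 at matched position in any of the 14, where 1.48% to 3.1% of all genes kept were higher and 0.357% to 1.78% lower. Without position matching 2 members were higher in Tom+ (8.48% of all genes kept) and 1 was lower (2.54%), and the median ratio of the members was −0.12. At matched position that median was −0.07, and it was −0.079 with the held-out landmarks, −0.076 with 3 layers and −0.049 with all cells past the per-cell filters. In that last setting 36 of the 39 members kept the sign of their matched ratio, and 1.78% of all genes kept were lower in Tom+, beside 0.485% at the main settings. Median-of-ratios scaling shifted all gradients to the portal side, by construction, and turned the sign of 6 members, C1ra, C2 and Plg in both libraries and Mbl2, F2 and F12 in 1. The stricter marker limit left the same 11073 and 10472 cells, so it gave the same values. The causes of the other shifts were not tested. The C9 gradient depended most on the number of layers (0.69 to 1.55 in Tom-). No paired analysis was possible because only 1 library stands for each group. Animal, sort gate and library cannot be told apart from the group, fewer UMIs per cell and fewer transcripts cannot be separated in CPM, and no value carries an error between mice.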
